A study of Mus musculus with 30 samples.

Results

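The genes described here are 50 genes of DNA replication and mitosis, chosen by name, out of 13456 genes that at least 1 of the 7 deposited tables lists. All 50 were listed in all 7 tables, and all 50 passed the filter on low values (a mean of at least 1 CPM, the read count scaled to library size) in each of the 7 comparisons. They fall into 23 replication genes, 5 genes of S-phase entry and its checkpoint, and 22 genes of G2 phase and mitosis.

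A dividing cell first loads the Mcm helicase onto its replication origins with the help of Cdc6 and Cdt1, then fires them with Cdc45 and the GINS complex, and copies DNA with polymerases held to the template by the Pcna clamp. Cyclin E with Cdk2 and the transcription factor E2f1 open this phase, and Chek1 guards it. Later, cyclins A and B with Cdk1, the Aurora and Polo kinases, spindle motors and the checkpoint kinases Bub1, Bub1b and Ttk drive chromosome segregation, with Foxm1 as a transcription factor of that phase. In the colon, dividing cells sit in the lower crypt, and TGFB1 and BMP2 signal to the nucleus through receptor-activated Smads that share the partner Smad4.

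The samples were 30 RNA-seq libraries in 10 groups of 3. Colon epithelium came from Smad4ΔLrig1 mice (called Smad4 KO below) and from Smad4+ control mice (WT), both C57BL/6J; Lrig1, named in the allele, marks stem and progenitor cells of the gut, while how the deletion was made and the age of the mice were not in the labels. Colonocytes labelled IMCfl/fl Smad4+, so that all of their groups carry that background, received TNFa with TGFb and BMP2, TGFb with BMP2, TNFa, or nothing (Ctl); doses and times were not in the labels. Colonoids, organoids grown from colon, came from 3 lines named L42, L43 and L46, and each line received TNF at 100 ng/mL with TGFB1 at 3 ng/mL and BMP2 at 10 ng/mL, the last 2 alone (TGFb+BMP), TNF alone, or vehicle (Ctl); genotype, strain and time were not in the labels. Each group is described as 3 biological replicates, but for the colonocytes no label says what sets the replicates apart. The p-values below cover only the variation among these samples, which may be technical.

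Reads over the listed genes came to 23.2 to 28.6 M per epithelium library, 21.6 to 42.9 M per colonocyte library and 42.2 to 61.7 M per colonoid library. Smad4 itself stood at 47.8, 59.2 and 46.1 CPM in the KO epithelium libraries, against 132, 148 and 152 CPM in WT, a log2 change of -1.49. The epithelium and colonoid libraries carried epithelial markers, with Epcam at 2014, 2106 and 2281 CPM in KO, 1939, 1972 and 2018 CPM in WT and 1445, 1487 and 1437 CPM in Ctl colonoids. Summed over 9 epithelial markers, KO stood lower without overlap, at 10988 to 13735 CPM against 14762 to 15621 CPM in WT, and 1 of the 9 was higher and 3 were lower. The colonocytes largely went against their label. Of 9 epithelial markers 6 were not listed (Epcam, Krt20, Cdh1, Vil1, Cdx2 and Lgals4), and of the keratins listed Krt8 stood at 0.771, 1.06 and 1.61 CPM, Krt18 at 4.88, 5.50 and 4.75 CPM and Krt19 at 37.6, 39.3 and 27.4 CPM in Ctl, while the mesenchymal genes Vim and Col1a1 stood at 3166, 3071 and 2996 CPM and 2241, 2155 and 1959 CPM. No absorptive, goblet or leukocyte marker was listed in them, and they are called colonocytes below only because the labels do.

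Promoter windows are printed for 4 genes, because replication and mitosis genes that moved together carried different short motifs around their starts. RefSeq (GRCm38.p6, the assembly behind mm10) gave a window of 250 bases before to 50 after a transcript start for 40 of the 50 genes. For 26 of them that start is the annotated gene start within 1 base, and for Mcm5 it lies a little inside the gene. Capitals mark E2F-like motifs (TTCCCGC or TTGGCGC or TTCGCGC or TTGCCGC), the CHR element TTTGAA and the CCAAT box, each searched on both strands, and each window reads 5′ to 3′ on its gene's strand. Mcm5, a helicase subunit, lies on chr8:75109468-75128439 and its window spans chr8:75109259-75109558 (plus strand). Ccne1, cyclin E1, lies on chr7:38097984-38107490 with a window at chr7:38107441-38107740 (minus strand). Ccnb1, cyclin B1, lies on chr13:100778739-100786486 with a window at chr13:100786437-100786736 (minus strand). Plk1, a mitotic kinase, lies on chr7:122159435-122169884 with a window at chr7:122159185-122159484 (plus strand).
Mcm5: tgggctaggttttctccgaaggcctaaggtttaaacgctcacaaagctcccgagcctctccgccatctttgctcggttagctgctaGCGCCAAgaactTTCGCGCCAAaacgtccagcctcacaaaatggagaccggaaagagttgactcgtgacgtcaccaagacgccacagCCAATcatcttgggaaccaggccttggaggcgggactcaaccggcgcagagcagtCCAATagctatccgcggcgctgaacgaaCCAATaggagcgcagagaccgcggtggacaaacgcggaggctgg
Ccne1: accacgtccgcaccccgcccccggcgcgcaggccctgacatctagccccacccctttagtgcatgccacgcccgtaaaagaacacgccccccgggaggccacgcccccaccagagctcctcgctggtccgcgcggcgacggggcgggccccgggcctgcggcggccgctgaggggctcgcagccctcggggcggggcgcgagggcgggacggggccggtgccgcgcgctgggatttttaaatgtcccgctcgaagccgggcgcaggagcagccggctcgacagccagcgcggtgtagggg
Ccnb1: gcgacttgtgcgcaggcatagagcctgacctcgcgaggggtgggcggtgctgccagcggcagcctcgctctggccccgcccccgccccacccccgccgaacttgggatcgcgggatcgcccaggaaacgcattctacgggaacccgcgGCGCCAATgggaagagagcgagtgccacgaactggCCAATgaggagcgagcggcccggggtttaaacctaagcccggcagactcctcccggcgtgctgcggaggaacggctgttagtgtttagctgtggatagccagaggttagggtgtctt
Plk1: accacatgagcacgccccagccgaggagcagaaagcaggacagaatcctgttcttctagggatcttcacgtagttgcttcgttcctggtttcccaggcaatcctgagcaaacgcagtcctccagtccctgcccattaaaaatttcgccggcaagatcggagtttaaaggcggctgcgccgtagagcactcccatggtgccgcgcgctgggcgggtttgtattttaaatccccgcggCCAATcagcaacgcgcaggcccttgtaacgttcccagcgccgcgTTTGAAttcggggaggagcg
The Mcm5 window held 3 E2F-like motifs and 3 CCAAT boxes and no CHR. The Plk1 window held a CHR element after the start and a CCAAT box before it, and the Ccnb1 window an E2F-like motif that overlaps a CCAAT box, plus another CCAAT box. None of these letters occurred in the Ccne1 window.

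Across the set the motifs split by class. E2F-like motifs stood in 14 of 19 replication windows (73.7%), in 2 of 4 entry windows and in 3 of 17 mitosis windows (17.6%), beside 9.69% of all 27025 windows. The CHR element stood in 12 of 17 mitosis windows (70.6%), in 2 of 19 replication windows (10.5%) and in no entry window, beside 18.1% of all windows. Each of those 12 mitosis windows also held CCAAT, a pair found in 7.12% of all windows. CCAAT alone was common, at 15 of 17 mitosis windows (88.2%), 13 of 19 replication windows (68.4%) and 37.9% of all. In 3 member windows an E2F-like motif and a CCAAT box shared letters. These matches describe letters in a window and say nothing of a factor bound there.

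**Figure D1:**
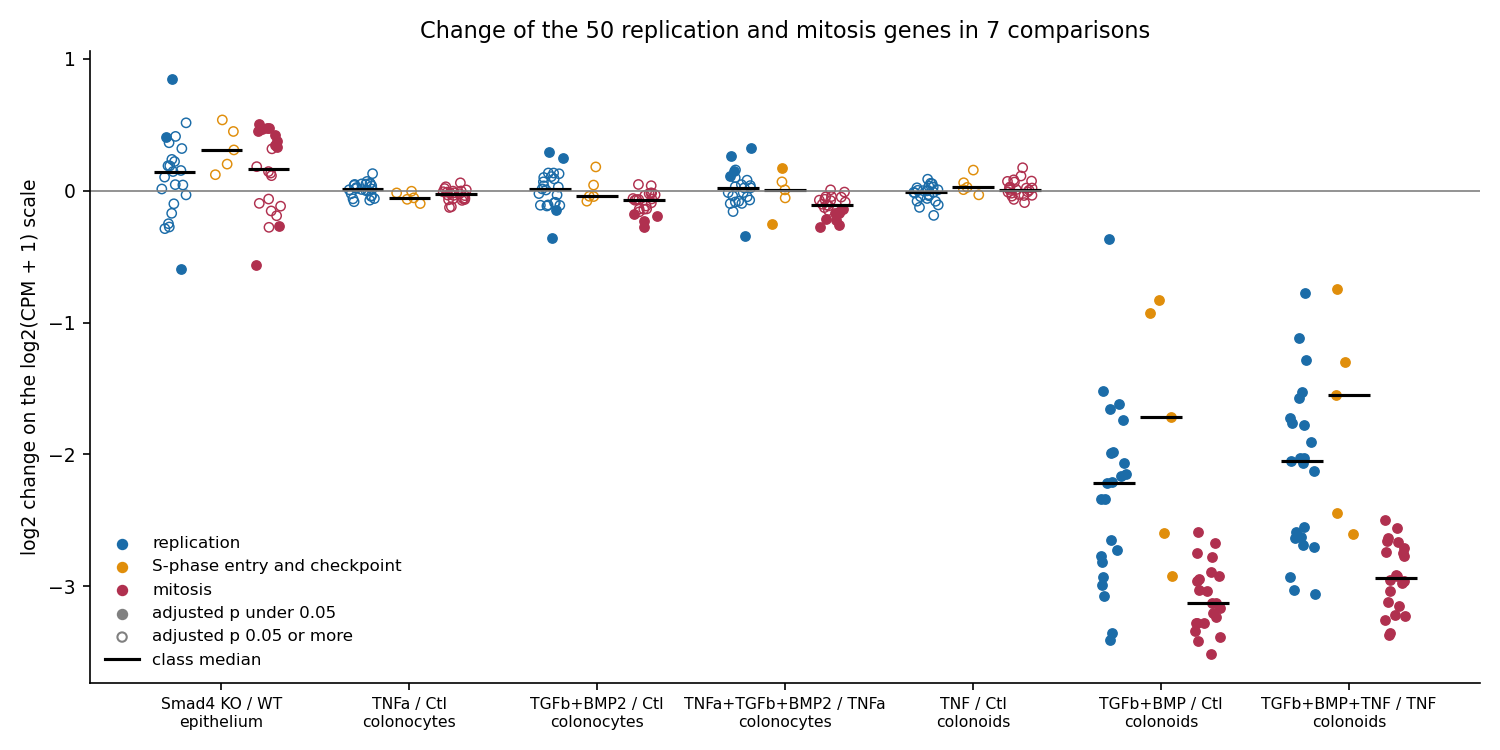
Each point is 1 of the 50 genes, placed at its log2 change on the log2(CPM + 1) scale (y axis) in each of the 7 comparisons (x axis, each named with its divisor), coloured by class and filled where the adjusted p was under 0.05; black bars are class medians. All 50 genes lie below 0 in the TGFb+BMP comparisons of the colonoids, while no gene is past the threshold for TNF alone.

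The largest change of the set was in colonoids given TGFB1 with BMP2. All 50 genes were lower in TGFb+BMP than in Ctl colonoids (limma on log2(CPM + 1), Benjamini-Hochberg adjusted p under 0.05 over 11633 genes), where 28.7% of all genes tested were lower and 28.0% were higher. The median log2 change was -3.13 over the mitosis genes, -2.21 over the replication genes and -1.71 over the entry genes, beside -0.02 over all genes tested. For each of the 50 genes the TGFb+BMP and Ctl libraries did not overlap; of all genes, 34.5% were separated in that direction. In bulk RNA, fewer dividing cells and less of these transcripts per cell cannot be told apart.

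Among replication genes, Mcm5 stood at 6.90, 7.95 and 54.0 CPM in TGFb+BMP colonoids of L42, L43 and L46, against 146, 167 and 167 CPM in Ctl of the same lines, a log2 change of -3.35 (SE 0.71, adjusted p = 0.00839). Line L46 kept several times more than the other lines, yet all 3 treated libraries lay below all 3 Ctl libraries. Uhrf1, which recruits DNA methylation to newly copied DNA, stood at 7.81, 6.52 and 68.1 CPM against 164, 169.6 and 193 CPM in Ctl (log2 change -3.41). Tk1, thymidine kinase, stood at 5.43, 5.33 and 49.0 CPM against 92.3, 104 and 123 CPM in Ctl (-3.07). In both genes L42 and L43 lay close together and L46 lay between them and Ctl. Mcm2, another helicase subunit, stood at 15.6, 18.5 and 68.1 CPM against 136, 142 and 147 CPM in Ctl (-2.34). Rrm2, the small subunit of ribonucleotide reductase, stood at 30.7, 22.6 and 78.7 CPM against 103, 129 and 138 CPM in Ctl (-1.66). In these genes the distance between L46 and the other treated lines was smaller, and the groups still did not overlap. The primase subunit Prim1 (-2.99), Mcm3 (-2.93) and the origin licensing factor Cdc6 (-2.82) also fell by more than the class median. Pcna apart, the other 14 replication genes ran from Pola1, a subunit of the polymerase that starts each new strand (-2.77), to Rfc3, a subunit of the loader that places the Pcna clamp (-1.52). Among them were the origin firing factors Cdc45 (-2.73), Gins2 (-2.34) and Gins1 (-1.62), the helicase subunits Mcm4 (-2.21), Mcm7 (-2.06) and Mcm6 (-1.98), and the licensing factor Cdt1 (-2.21).

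Pcna was the exception in size. It stood at 264, 237 and 269.9 CPM in TGFb+BMP colonoids, against 303, 356 and 335 CPM in Ctl, a log2 change of -0.36 (SE 0.10, adjusted p = 0.0198). Both groups were tight and did not overlap, and this was the smallest change of the 50. The next smallest among replication genes was that of Rfc3, so the clamp stood well apart from its own loader.

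The entry genes were mixed in size. E2f1 stood at 1.94, 1.49 and 11.5 CPM in TGFb+BMP colonoids, against 25.7, 26.2 and 26.8 CPM in Ctl (log2 change -2.59, SE 0.58, adjusted p = 0.0103). The checkpoint kinase Chek1 stood at 1.06, 0.958 and 8.56 CPM against 23.2, 25.7 and 25.1 CPM in Ctl (-2.93). Ccne1 stood at 2.92, 3.39 and 11.1 CPM against 18, 21.8 and 15.9 CPM in Ctl (-1.71). Its L46 value lay nearest to Ctl among the treated libraries, without reaching it. Ccne2, cyclin E2, and Cdk2, its kinase partner, fell by less, with log2 changes of -0.83 and -0.92.

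The mitosis genes fell the most and the most evenly, with log2 changes from -3.51 for Ccna2 to -2.59 for Aurka. Ccna2, cyclin A2, stood at 9.97, 6.94 and 103 CPM in TGFb+BMP colonoids, against 208, 247 and 259.6 CPM in Ctl (SE 0.91, adjusted p = 0.0166). Mki67, the gene of the proliferation antigen Ki-67, stood at 20.8, 19.1 and 302 CPM against 479, 460.1 and 687 CPM in Ctl (-3.39, SE 1.01). For both genes the L46 library with the ligands lay far above the other treated libraries and below every Ctl library.

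Top2a, the topoisomerase that untangles sister chromatids, stood at 27.1, 19.1 and 235 CPM in TGFb+BMP colonoids, against 444, 464 and 586 CPM in Ctl (-3.28). Ccnb1 stood at 6.38, 4.16 and 57.4 CPM against 112, 131 and 136 CPM in Ctl (-3.28). Cdk1, the kinase that cyclin B activates, stood at 9.14, 6.84 and 68.0 CPM against 117, 142 and 140.4 CPM in Ctl (-2.92). In each of these genes L42 and L43 were low together and L46 was between them and Ctl. Plk1 stood at 4.59, 3.68 and 53.9 CPM against 87.3, 98.2 and 117 CPM in Ctl (-3.16). Foxm1 stood at 4.30, 2.64 and 31.9 CPM against 59.8, 62.1 and 74.5 CPM in Ctl (-2.94). Aurkb, the Aurora kinase of the chromosomal passenger complex, and Kif11, the motor that pushes spindle poles apart, changed by -3.41 and -3.34. The spindle checkpoint kinases Ttk (-3.27), Bub1 (-2.96) and Bub1b (-2.89) and the anaphase genes Cdc20 (-3.13) and Ube2c (-3.03) lay in the same range.

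**Figure D2:**
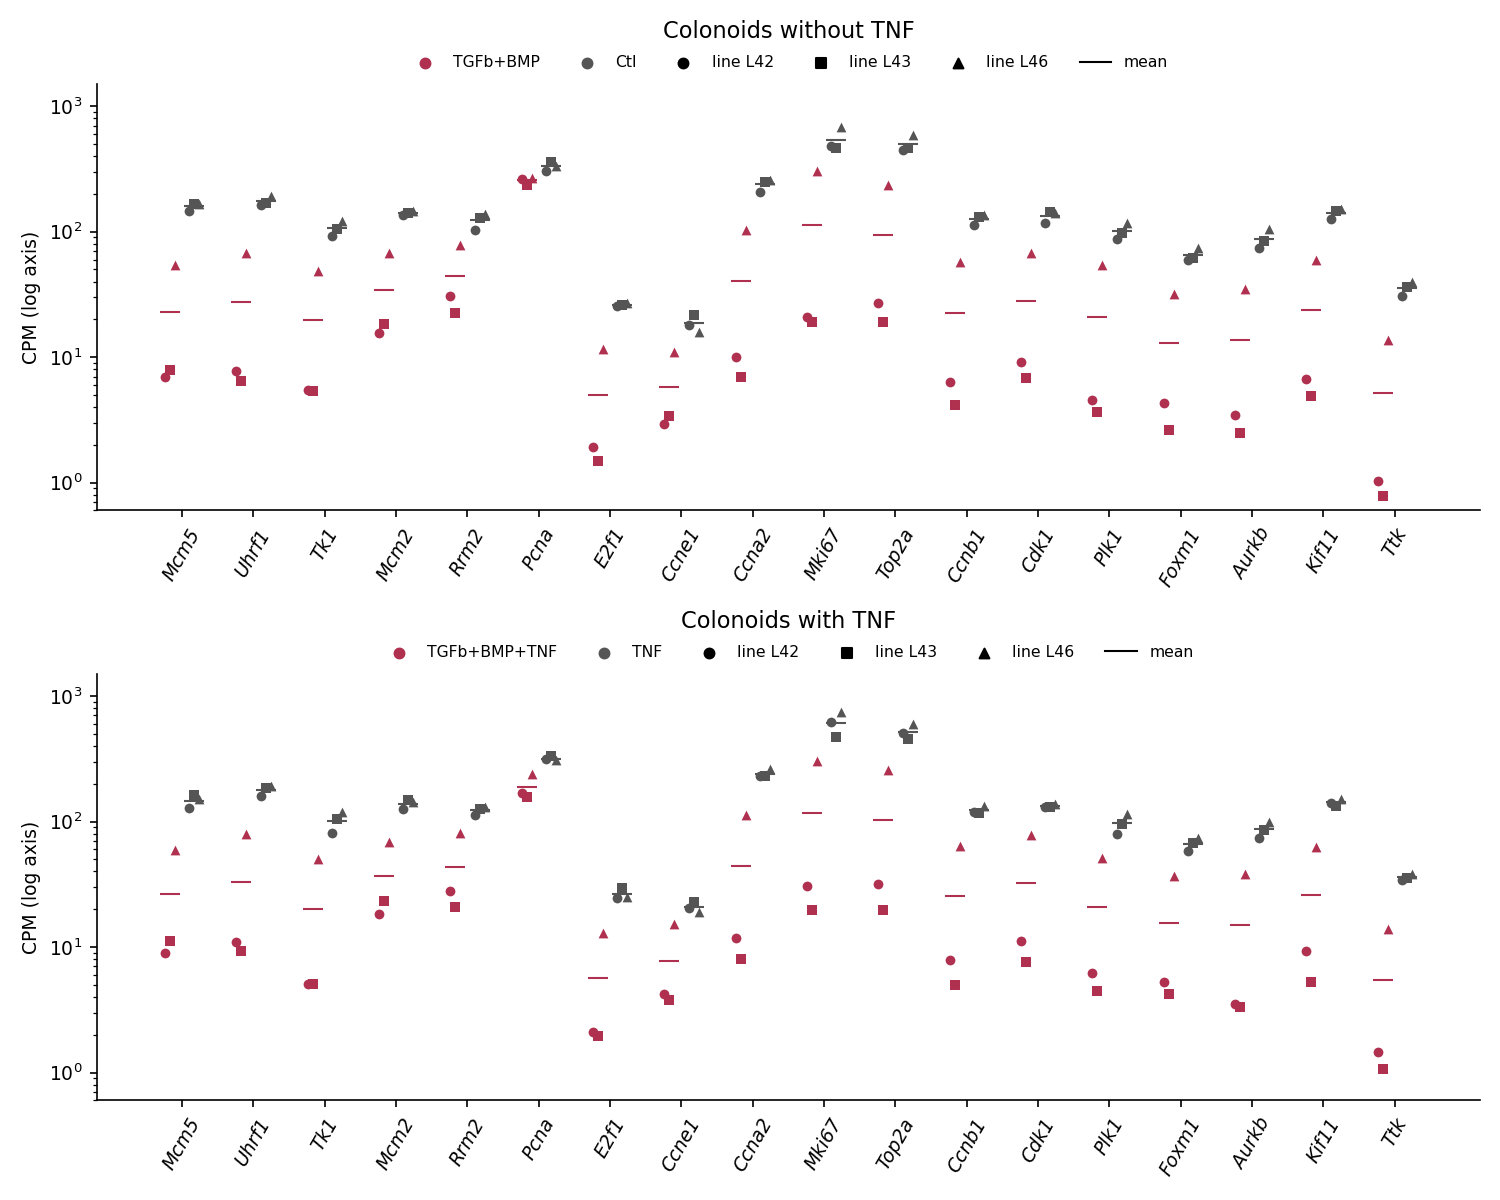
CPM on a log axis (y axis) of 18 of the genes in each colonoid library, without TNF (top) and with TNF (bottom), with TGFB1 and BMP2 in red left of the matching grey libraries without them; marker shapes are lines and short bars are means of 3. Red circles and squares (L42, L43) lie far below grey for the mitosis genes, red triangles (L46) lie between, and the Pcna groups lie close together.

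The limits of this comparison lie in the spread between lines. With the count-based edgeR quasi-likelihood test on reads recovered from the CPM steps, 27 of the 50 genes were lower in TGFb+BMP than in Ctl colonoids (22 replication, 5 entry and no mitosis genes; 27.0% of all genes were lower), and with the line as a block in that test all 50 were. In limma, leaving out Ctl L43, Ctl L46 or TGFb+BMP L42 gave 28, 28 and 27 genes past the threshold. The share of all genes in these smaller fits is not given, so a loss particular to the 50 genes cannot be read from them. Scaled to total listed reads, all genes shifted by a median of -0.26 and the split of all genes became 1997 higher and 5026 lower, against 3262 and 3334, and all 50 genes stayed lower.

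The 3 lines kept very different shares of these transcripts. As a percent of the Ctl level of the same line, the median over the 50 genes in TGFb+BMP colonoids was 43.9% in L46, 7.66% in L42 and 5.60% in L43. L46 kept the highest share for 49 of the 50 genes, Pcna being the exception, and L43 lay below L42 for 43 of 50. Mki67 kept 43.9% in L46, 4.35% in L42 and 4.14% in L43. Mcm5 kept 32.4% in L46, 4.71% in L42 and 4.75% in L43. In both genes L46 stood apart and the other lines were close together. Plk1 kept 45.9% in L46, 5.26% in L42 and 3.75% in L43. Rrm2 kept 57.0% in L46, 29.7% in L42 and 17.6% in L43. Pcna kept 80.7% in L46, 87.1% in L42 and 66.6% in L43, so that its order over the lines was another one.

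Replication and mitosis genes differed in L42 and L43 and hardly in L46. The mitosis genes kept a median of 6.16% in L42 and 3.92% in L43, against 13.6% and 12.6% for the replication genes. In L46 the medians were 44.1% for mitosis genes and 42.4% for replication genes. Every mitosis gene was at or below 9.51% in L42 and 7.34% in L43, while replication genes ranged up to 87.1% and 66.6%, the Pcna values. Ccne1 kept 69.5% in L46, 16.2% in L42 and 15.6% in L43, and Ccne2 kept 57.9% in L46, 45.1% in L42 and 57.1% in L43, with less distance between lines.

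**Figure D3:**
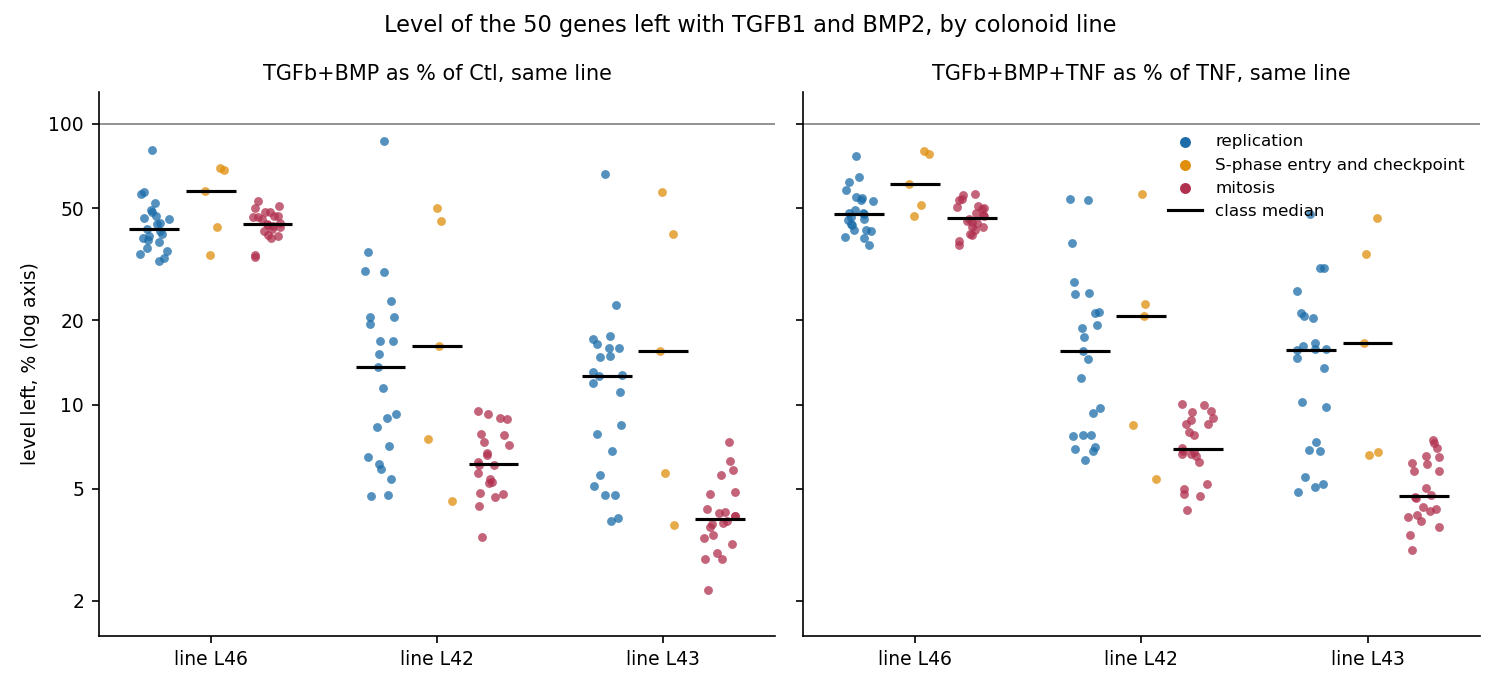
Level left with TGFB1 and BMP2 as a percent of the same line without them (y axis, log scale), 1 point per gene, for L46, L42 and L43 (x axis), without TNF (left) and with TNF (right); black bars are class medians and the grey line is 100%. In L46 the class medians of replication and mitosis genes are 42.4% and 44.1% without TNF, and in L42 and L43 the mitosis points lie in a band below most replication points.

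Tests of the line differences, added after these values were seen, treated the libraries with and without TNF as repeats within a line, so they speak of these 3 lines only. The effect of TGFb+BMP in L46 minus the mean effect in L42 and L43 was positive, that is, the fall was smaller in L46, for all 50 genes (limma adjusted p under 0.05; 25.7% of all genes tested were called in that direction). The median difference was 2.84 on the log2 scale for mitosis genes, 1.86 for entry genes and 1.66 for replication genes. It was 3.19 (SE 0.14) for Mki67, 2.51 (SE 0.10) for Mcm5 and 0.34 (SE 0.11, adjusted p = 0.0258) for Pcna. The edgeR test also called all 50.

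Among libraries with TGFb+BMP, all 50 genes were higher in L46 than in L42 and L43 (32.1% of all genes were). Among libraries without it, 18 of 50 were higher in L46 (12.1% of all genes were): 15 mitosis genes, of which Mki67 had the largest difference (0.51, SE 0.10), with Top2a (0.34) and Plk1 (0.36), and the replication genes Cdt1 (0.33), Rrm2 and Tk1. This count rested on single libraries, with 2 genes left without Ctl L46 and 1 without TNF L46. The share of all genes in fits that left out 1 library is not given, here or for the contrasts that follow. Averaged over all 4 treatments, 1 gene (Cdt1) was higher in L46 than in L42 (5.89% of all genes) and 12 were higher in L46 than in L43 (11.3% of all genes), 9 of them mitosis genes; the counts reached 40 and 42 without Ctl L46, 42 and 44 without TNF L46, and were 0 to 1 and 0 to 13 without any 1 of the others. Between L43 and L42 limma and edgeR called no gene (7.64% of all genes in limma), 2 had an unadjusted p under 0.05 (20.7% of all genes did), and all 22 mitosis genes had negative values, with a median of -0.18.

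Other genes, singled out here, differed by line in the same libraries. Krt20 and Lgr5 are single members of longer marker lists, and no absorptive or goblet marker was higher with the ligands. Line differences of those other markers are not given here. Krt20, a keratin of differentiated surface cells, stood at 1330.5, 1923 and 330.2 CPM in TGFb+BMP colonoids of L42, L43 and L46, against 102, 156 and 76.4 CPM in Ctl (3.14). Cdkn1a, the cyclin-dependent kinase inhibitor p21, stood at 667, 1115 and 457 CPM against 172, 182 and 226 CPM in Ctl (1.86). The stem cell gene Lgr5 stood at 6.97, 3.05 and 45.1 CPM against 191, 119 and 152 CPM in Ctl (-3.74). The effect in L46 minus that in L42 and L43 was -1.35 for Krt20 (adjusted p = 1.84e-07), -1.19 for Cdkn1a (adjusted p = 7.55e-08) and 2.81 for Lgr5 (adjusted p = 4.38e-09), by limma. Samples of L46 also carry another numbering in the labels than those of L42 and L43, and line and numbering cannot be told apart.

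Several marker lists also differed between TGFb+BMP and Ctl colonoids. Of 9 epithelial markers 8 were higher and none lower, with summed levels of 25076 to 34052 CPM against 8976 to 10886 CPM in Ctl. Of 5 crypt progenitor markers 1 was higher and 3 lower, and all 5 goblet markers were lower, with sums of 199 to 249 CPM against 594 to 1035 CPM in Ctl. Of 5 absorptive markers 2 were lower and none higher, and their sums overlapped, at 1012 to 1909 CPM against 1391 to 2191 CPM in Ctl. Of 7 stromal markers 5 were not listed, Vim among them, and the sums were 2.41 to 3.20 CPM against 4.19 to 5.58 CPM in Ctl. Of 8 leukocyte markers 7 were not listed, Ptprc included, and the sums were 0.153 to 0.491 CPM against 1.80 to 2.85 CPM in Ctl. The part of these shifts in the change of the 50 genes was not tested.

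Further genes of the same processes were mostly lower too, where 28.7% of all genes were lower and 28.0% higher. These lists were also chosen with earlier results of these data known, so they are no independent check of the set. Of 34 further replication genes 32 were lower and none higher in TGFb+BMP than in Ctl colonoids (median -1.74), led by the origin firing factor Mcm10 (-3.30) and the exonuclease Exo1 (-3.28). Of 38 further mitosis genes 37 were lower (median -2.75), led by Ckap2 (-3.38) and Cdca3 (-3.29). Of 31 cell cycle control genes 6 were higher and 15 lower. Cdkn2b, the inhibitor p15 and a known TGF-beta target, stood at 191, 159.5 and 134 CPM against 57.5, 46.8 and 54.7 CPM in Ctl (1.58). The repressor E2f8 changed by -3.42, Mybl2, a partner of the MuvB complex, by -2.73, and cyclin D2 (Ccnd2) by -1.80. Myc stood at 243, 191 and 284 CPM against 232, 204 and 240.1 CPM in Ctl, and the difference did not pass the threshold.

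By promoter window, the 14 genes with a CHR element had a median log2 change of -3.15, the 17 with an E2F-like motif and no CHR had -2.65, and the 9 with neither had -2.77. The ranges of the 3 groups overlapped. Of the 14 genes with a CHR element 12 were mitosis genes, so motif and class cannot be told apart here. Of the windows printed above, Plk1 with its CHR changed by -3.16, Mcm5 with its E2F-like motifs by -3.35, Ccnb1 by -3.28 and Ccne1, with none of these letters, by -1.71.

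With TNF present in both groups, TGFB1 and BMP2 again went with lower levels of every gene of the set. All 50 genes were lower in TGFb+BMP+TNF than in TNF colonoids (limma; 27.7% of all genes were), with medians of -2.94 for mitosis, -2.05 for replication and -1.55 for entry genes, beside -0.03 over all genes. Mki67 stood at 30.9, 19.6 and 303 CPM, against 616, 470.4 and 752 CPM with TNF alone (-3.37), and Mcm5 at 8.90, 11.1 and 59.3 CPM, against 128, 162 and 151 CPM (-2.93). Pcna stood at 168, 158 and 238 CPM against 313, 332 and 308 CPM with TNF alone (-0.78, SE 0.16), with L42 and L43 lower than L46. The median share left was 47.6% in L46, 8.69% in L42 and 6.81% in L43, with L46 highest for all 50 genes. The smallest changes were those of Cdk2 (-0.74), Pcna and Pole, a leading-strand polymerase subunit (-1.12). The edgeR test called 25 genes (21 replication, 4 entry and no mitosis genes; 25.5% of all genes were lower), and leaving out TGFb+BMP+TNF L42, TNF L42, TNF L43 or TNF L46 gave 25, 28, 26 and 23 in limma. For the fits without 1 library the share of all genes is not given. Scaled to total listed reads, all 50 genes stayed lower, and the split of all genes became 1912 higher and 4890 lower, against 3061 and 3217.

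TNF alone moved none of the 50 genes past the threshold in colonoids. In limma and in edgeR 0 of 50 passed the threshold for TNF against Ctl (0.137% of all genes did in limma), and 0 had an unadjusted p under 0.05 (4.4% of all genes did). Mki67 stood at 676, 515 and 826 CPM with TNF, against 531, 501 and 754 CPM in Ctl (0.17, SE 0.21), a difference smaller than the spread between lines. Mki67 had the highest value of the 50, and Cdt1 the lowest (-0.19). Mcm5 stood at 141, 177 and 166 CPM against 162, 182 and 183 CPM in Ctl (-0.13, SE 0.10). Within each line Mki67 was higher and Mcm5 lower with TNF, and the fit behind these values had no line term. With the line as a block, limma and edgeR also called 0 of 50 for TNF. The test of the difference between the TGFb+BMP effects with and without TNF called 0 of 50 genes in limma and in edgeR (0.0% of all genes in limma), none at an unadjusted p under 0.05 (0.736% of all genes). Its values were positive, that is, the fall was smaller with TNF, for 46 of 50 genes (median 0.17), and the value for Pcna was -0.40 (SE 0.19). That test leaves the spread between lines in its error, with a median SE of 1.04 over the 50 genes. The Ctl and the TNF libraries each stand in 2 of these comparisons, here and in the colonocytes.

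A fit added later, with terms for the line and for the TGFb+BMP effect of each line, had a median SE of 0.10 and called 1 of the 50 genes higher and none lower (limma; 0.202% of all genes were higher and 1.18% lower). The gene was Mcm5, at 0.44 (SE 0.09, adjusted p = 0.0385). Mcm5 kept 39.3% in L46, 6.94% in L42 and 6.84% in L43 with TNF, more than without TNF in each line. At an unadjusted p under 0.05 there were 24 of the 50 genes, 13 of them replication genes, beside 12.1% of all genes. Mcm6 stood at 0.43 (SE 0.10, adjusted p = 0.0540) and Pcna at -0.40 (SE 0.11, adjusted p = 0.103), short of the threshold. The edgeR test with the same terms called 0 of 50, with 21 at an unadjusted p under 0.05.

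In colonocytes the same ligands changed few of the 50 genes and only by small amounts. Of the 50, 2 were higher and 6 lower in TGFb+BMP2 than in Ctl colonocytes (limma, adjusted p under 0.05; 15.9% of all genes were higher and 14.3% lower), so the share of the set that changed was below that of all genes. The genes called were of both directions for replication and all lower for mitosis: 2 replication genes were higher and 2 lower, and 4 mitosis genes were lower. The medians were 0.01 for replication, -0.04 for entry and -0.07 for mitosis genes.

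Rrm2 stood at 517, 520.2 and 560.3 CPM in TGFb+BMP2 colonocytes, against 418, 422 and 461 CPM in Ctl (log2 change 0.30, SE 0.05, adjusted p = 0.000727). Mcm4 stood at 499, 514 and 503 CPM against 429, 423 and 422 CPM in Ctl (0.25, adjusted p = 0.000461). Tk1 stood at 51.2, 55.3 and 61.0 CPM against 75.4, 70.2 and 69.5 CPM in Ctl (-0.36, adjusted p = 0.00131). None of these 3 genes overlapped between the groups, and Tk1 and Rrm2, which both supply DNA precursors, moved in opposite directions. Of the 50 genes, 9 lay higher and 10 lower without overlap, beside 2596 and 2468 of all 11620 genes tested. Nusap1, a spindle-associated protein, stood at 72.0, 78.6 and 66.1 CPM against 83.2, 89.8 and 89.2 CPM in Ctl (-0.27). Mki67 stood at 414, 433 and 378 CPM against 453, 459.5 and 469 CPM in Ctl (-0.18, adjusted p = 0.0223), with replicate 3 the lowest. The kinetochore protein Cenpf (-0.23), Bub1b (-0.19) and Uhrf1 (-0.15) fell too. Mcm5, which fell so far in colonoids, stood at 397, 398 and 420.4 CPM against 385, 396 and 378 CPM in Ctl (0.07) and did not pass the threshold.

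With TNFa in both groups, 5 of the 50 genes were higher and 10 lower in TNFa+TGFb+BMP2 than in TNFa colonocytes (16.4% and 15.6% of all genes were), in all about as large a share as over all genes. The higher ones were the replication genes Rrm2 (0.32), Mcm4 (0.27), Tyms, thymidylate synthase (0.15), and Mcm2 (0.11), with Ccne2 (0.17). The lower ones were Tk1 (-0.34), Chek1 (-0.25) and 8 mitosis genes, from Nusap1 (-0.27) and Birc5, a subunit of the passenger complex (-0.26), to Ccna2 (-0.14). Rrm2 stood at 501, 499.6 and 528 CPM against 389, 389 and 445 CPM with TNFa alone. Birc5 stood at 93.2, 93.1 and 83.8 CPM against 113, 112 and 99.5 CPM with TNFa alone, and Mki67 at 403, 402 and 389 CPM against 439.7, 452 and 452 CPM. Over all 50 genes, 6 lay higher and 15 lower without overlap, beside 22.9% and 22.5% of all genes. The groups did not overlap for any of the 15 genes called, which adds little to the calls themselves.

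With the replicate number as a block, limma called 24 genes in this comparison. Of these, 7 were higher (6 of them replication genes, beside 21.9% of all genes) and 17 lower (12 of them mitosis genes, beside 21.4% of all genes). The numbers paired the libraries only in part. Same-numbered libraries had correlations of 0.163 to 0.411, and a pair with different numbers (2 and 1) reached 0.217. Scaled to total listed reads, 2 genes were higher and 19 lower without TNFa, and 2 and 23 with it. That scaling turned the split of all genes to 1228 higher and 2896 lower without TNFa, against 1848 and 1665, and to 1266 and 3065 with it, against 1892 and 1802. Without Ctl replicate 2 the first comparison called 5 genes, and without TNFa replicate 1 or 2 the second called 7 and 8. Shares of all genes are not given for these fits.

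**Figure D4:**
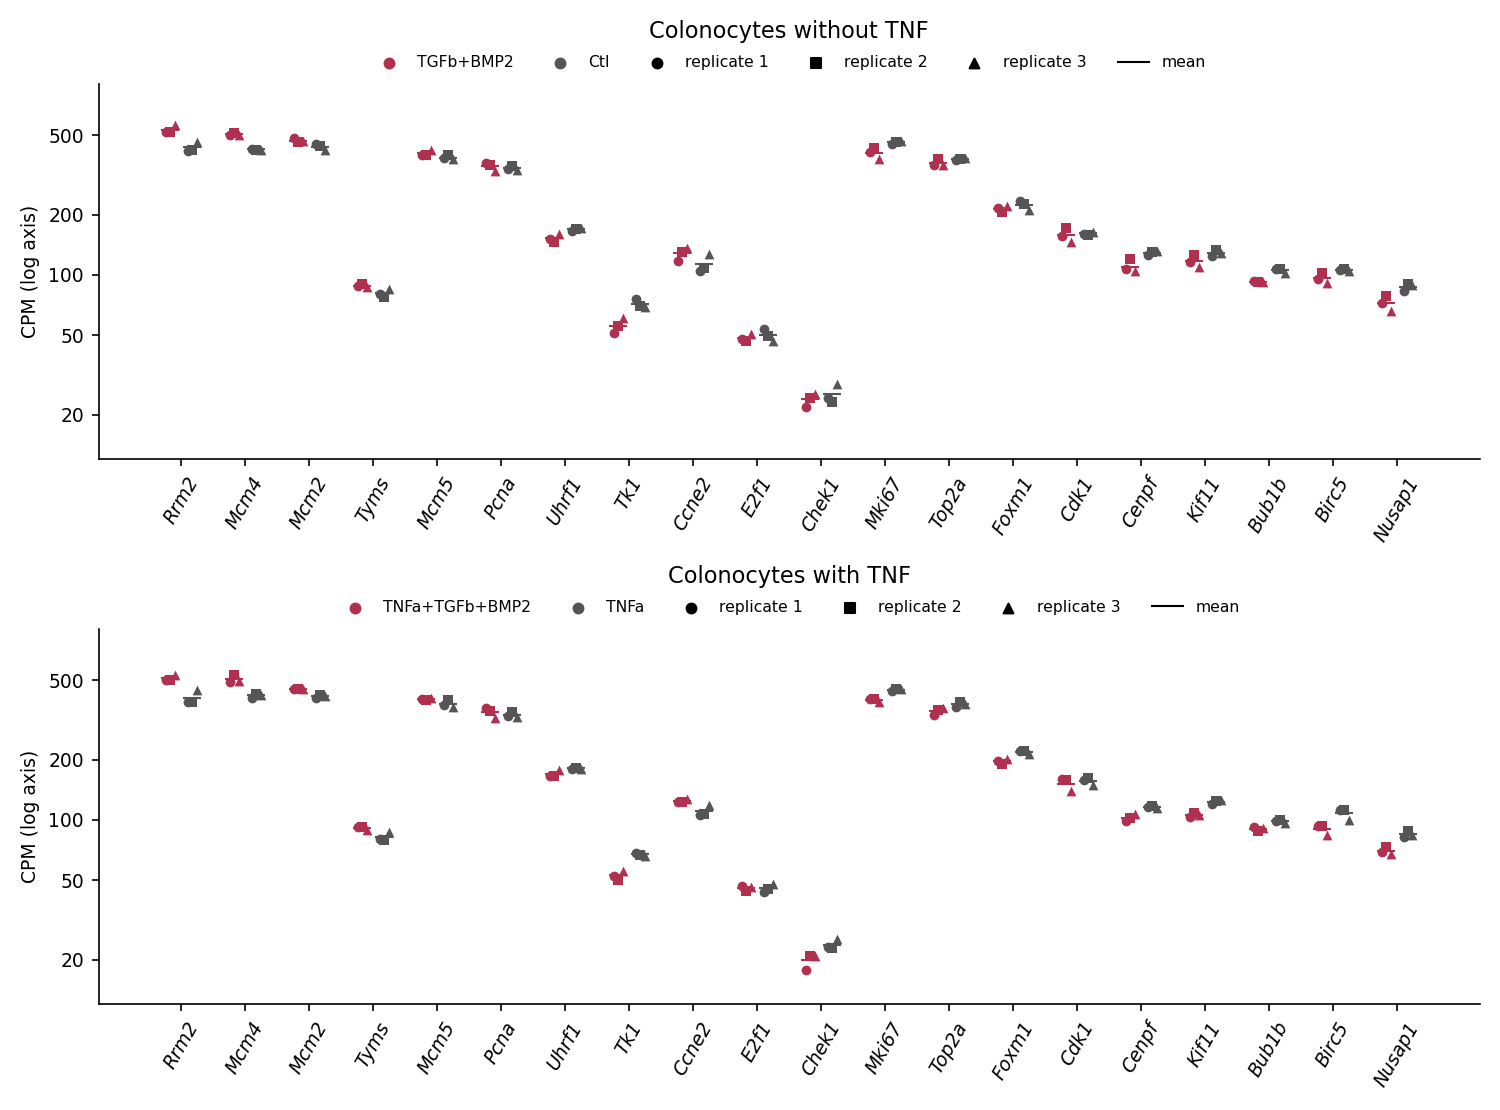
CPM on a log axis (y axis) of 20 of the genes in each colonocyte library, without TNFa (top) and with TNFa (bottom), with TGFb and BMP2 in red left of the matching grey libraries; marker shapes are replicate numbers and short bars are means of 3. Rrm2 and Mcm4 lie higher in red and Tk1, Nusap1 and Mki67 lower, all by small steps beside those of the colonoids.

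For TNFa alone in colonocytes, limma and edgeR called none of the 50 genes (6.28% of all genes in limma), and 2 had an unadjusted p under 0.05 (18.7% of all genes). With the replicate block limma called 3, Uhrf1 higher (11.5% of all genes) and Bub1 and Cenpf lower (8.8% of all genes), and without Ctl replicate 3 it called 1 with no block. Myc, a driver of growth and cell cycle entry, was higher with TNFa, at 219, 219 and 251 CPM against 146, 131 and 158 CPM in Ctl (0.67). The test of the difference between the TGFb+BMP2 effects with and without TNFa called 0 of 50 genes in limma and in edgeR (0.00875% of all genes in limma), and 0 had an unadjusted p under 0.05 (3.11% of all genes).

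Cell cycle control genes changed in both directions in TGFb+BMP2 colonocytes. Of 30 control genes tested 7 were higher and 9 lower, where 15.9% of all genes were higher and 14.3% lower. Cdkn2b stood at 157, 146 and 132 CPM against 81.4, 82.8 and 75.9 CPM in Ctl (0.85), and Cdkn1a at 1051, 965 and 1051 CPM against 872, 894 and 869.9 CPM (0.22). Cyclin D2 (Ccnd2) stood at 118, 123 and 133 CPM against 221, 227 and 223 CPM in Ctl (-0.84) and cyclin D1 (Ccnd1) changed by -0.66. Of 38 further mitosis genes 8 were lower and none higher, led by the cytokinesis genes Anln (-0.44) and Ect2 (-0.34), and 15 were lower with TNFa present. Of 34 further replication genes 1 was higher and 5 lower, and with TNFa 2 and 6. Stromal markers summed to 6826 to 7437 CPM against 6486 to 6951 CPM in Ctl, with 3 of 7 higher and 1 lower.

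The effect of TGFB1 with BMP2 differed between the culture systems for all 50 genes. In a joint fit of both systems the log2 change in colonoids minus that in colonocytes was negative and past the threshold for each of them (limma; 29.2% of all genes were called in that direction), with medians of -2.98 for mitosis, -2.39 for replication and -1.78 for entry genes. The difference was -3.43 (SE 0.80) for Mcm5, -3.22 (SE 1.15) for Mki67 and -0.40 (SE 0.15, adjusted p = 0.0287) for Pcna. The edgeR test called 28, of which 1 was a mitosis gene (Ttk), beside 27.4% of all genes. Dose, time and cell type differ or are not given for the colonocytes, so what separates the systems cannot be told apart.

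In colon epithelium, Smad4 KO went with higher levels of 9 of the 22 mitosis genes and lower levels of 2, and with fewer calls among replication genes. Of the 50 genes 11 were higher and 3 lower in KO than in WT (limma, adjusted p under 0.05), where 19.8% of all genes were higher and 19.9% lower; the share of the set that was higher lay near that of all genes and the share that was lower was smaller. They were 9 higher and 2 lower mitosis genes and 2 higher and 1 lower replication genes, with no entry gene. The medians were 0.16 for mitosis, 0.15 for replication and 0.31 for entry genes, beside 0.00 over all genes. Mitosis and replication genes thus had like medians, while the median SE was 0.12 for mitosis and 0.17 for replication genes. The replication count also depended on WT 1, as given below, so these counts do not show a difference between the classes.

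Top2a stood at 314, 309 and 299 CPM in KO, against 268, 192 and 210.3 CPM in WT (log2 change 0.47, SE 0.12, adjusted p = 0.0132). Ccna2 stood at 213, 207 and 219 CPM in KO against 183, 143 and 152 CPM in WT (0.43, adjusted p = 0.0117). Ttk stood at 22.6, 27.9 and 26.8 CPM in KO against 20.6, 15.9 and 17.2 CPM in WT (0.50, adjusted p = 0.0164). In all 3 genes the KO libraries lay above all WT libraries, and WT 1 was the highest of the WT. Over all 50 genes, 11 lay higher and 6 lower without overlap, beside 2903 and 2928 of all 11607 genes tested. Such separation was thus no more common in the set as a whole than over all genes. Cenpe, a kinetochore motor (0.47), Bub1 (0.45), Kif11 (0.38), Tpx2, a spindle assembly factor (0.35), and Nusap1 (0.33) were higher without overlap. Mki67 stood at 458, 468 and 402 CPM in KO against 403, 269 and 302 CPM in WT (0.46, adjusted p = 0.0284), and here KO 3 lay just below WT 1.

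Other mitosis genes went the other way. Cdc20, the activator of the anaphase-promoting complex, stood at 48.8, 39.1 and 40.9 CPM in KO against 72.2, 64.7 and 54.8 CPM in WT (-0.56, SE 0.13, adjusted p = 0.0081). Ccnb2, cyclin B2, stood at 72.3, 73.2 and 67.3 CPM in KO against 86.2, 86.0 and 84.6 CPM in WT (-0.27, adjusted p = 0.0402). For both genes all KO libraries lay below all WT libraries. Cdk1, the partner of cyclin B, stood at 56.4, 56.7 and 61.2 CPM in KO against 78.9, 63.8 and 69.8 CPM in WT (-0.28), without overlap and short of the threshold (adjusted p = 0.0655). Ccnb1 (-0.15), Plk1 (0.15) and Foxm1 (0.32) did not pass the threshold.

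Of the replication genes, Hells, a chromatin remodeller of dividing cells, stood at 41.1, 49.5 and 56.2 CPM in KO against 38.4, 20.1 and 24.4 CPM in WT (0.84, SE 0.21, adjusted p = 0.0107). Rrm1, the large subunit of ribonucleotide reductase, stood at 112, 126 and 117 CPM in KO against 113, 76.3 and 80.6 CPM in WT (0.41, adjusted p = 0.0449), with 1 KO library below WT 1. Tk1 stood at 30.7, 28.6 and 29.3 CPM in KO against 51.0, 42.9 and 42 CPM in WT (-0.60, SE 0.11, adjusted p = 0.00313), all KO below all WT. Tk1 was thus lower in KO epithelium and in all 4 comparisons with the TGFb and BMP ligands, which share no library with the epithelium.

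The helicase genes did not pass the threshold, and 1 WT library stood out in them. Mcm2 stood at 53.3, 42 and 48.6 CPM in KO against 65.3, 38.5 and 39.4 CPM in WT, and Mcm5 at 59.5, 50.1 and 55.2 CPM against 76.0, 49.7 and 42.4 CPM. Uhrf1 stood at 54.0, 46.1 and 54.7 CPM in KO against 92.4, 45.4 and 39.9 CPM in WT. In each of these 3 genes WT 1 was the highest of all 6 libraries, and the KO libraries overlapped with the WT range. The entry genes E2f1, at 10.1, 6.46 and 7.55 CPM in KO against 12.1, 5.69 and 5.28 CPM in WT, and Ccne1, at 15.1, 13.1 and 13.9 CPM against 14.3, 10.0 and 9.58 CPM, had their highest WT value in WT 1 too. Chek1 (0.54), Cdc6 (0.52) and Ccne2 (0.45) had the highest values among the 36 genes that did not pass, and Cdt1 (-0.29) the lowest.

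The count in the epithelium rested on single libraries. Without WT 1 limma called 22 genes higher and 2 lower (18.8% and 18.9% of all genes), among them 11 higher replication genes and 3 higher entry genes. Without WT 2 it called 1 higher (Hells) and 2 lower (Tk1 and Cdc20), without KO 2 it called 2 higher and 2 lower, and without WT 3 it called 6 higher and 2 lower. Hells, Tk1 and Cdc20 were called in each of the 6 fits that left out 1 library.

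**Figure D5:**
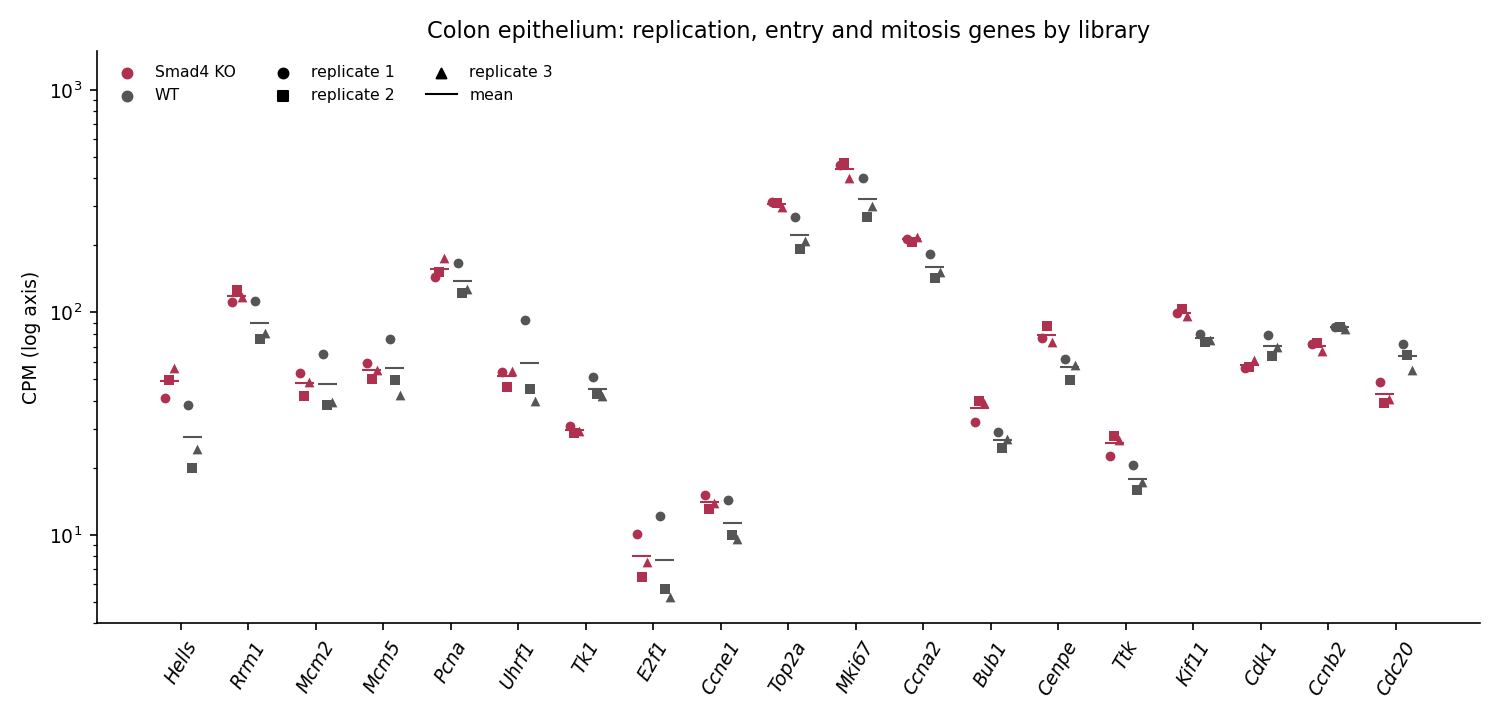
CPM on a log axis (y axis) of 19 of the genes in each colon epithelium library, Smad4 KO in red left of WT in grey; marker shapes are replicate numbers and short bars are means of 3. Top2a, Ccna2 and Ttk lie higher in KO, Tk1, Cdc20 and Ccnb2 lower, and the grey circle (WT 1) lies above the other WT libraries for most genes.

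Further genes of these processes also went both ways in the epithelium, where 19.8% of all genes were higher and 19.9% lower. Of 38 further mitosis genes 8 were higher and 2 lower in KO than in WT, with the condensin subunit Smc4 (0.70) and the motor Kifc1 (-0.61) at the ends. Of 34 further replication genes 6 were higher and 2 lower, with the origin recognition subunit Orc2 (0.54) and the clamp loader subunit Rfc2 (-0.75) at the ends. Of 29 control genes tested 7 were higher and 5 lower. Cdkn1a stood at 76.3, 73.2 and 75.8 CPM in KO against 191, 185 and 171 CPM in WT (-1.27, adjusted p = 4.42e-05). Cyclin D2 (Ccnd2, 0.70), cyclin D1 (Ccnd1, 0.49) and E2f8 (0.48) were higher, and Myc stood at 78.8, 72.8 and 34.4 CPM in KO against 36.7, 53.8 and 51.1 CPM in WT, short of the threshold.

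Some markers of crypt and surface cells also changed in KO epithelium. Lgr5 stood at 22.5, 22 and 13.6 CPM in KO against 6.51, 7.69 and 8.37 CPM in WT (1.23), and 3 of 5 crypt progenitor markers were higher and 2 lower. Of 5 absorptive markers 4 were lower and none higher, with sums of 3847 to 8607 CPM in KO against 10496 to 12129 CPM in WT. Of 5 goblet markers 4 were lower and none higher, with sums of 6715 to 9499 CPM in KO against 11228 to 12122 CPM in WT. Stromal markers, 5 of 7 not listed, summed to 14.5 to 17 CPM in KO against 21.5 to 22.6 CPM in WT, and leukocyte markers, 3 of 8 not listed, to 37.2 to 48.5 CPM against 39.7 to 54.2 CPM. The part of these shifts in the changes of the 50 genes was not tested.

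By the authors' own values, at an FDR under 0.05, 11 of the 50 genes were higher and 2 lower in KO epithelium. In colonocytes 2 were higher and 6 lower with TGFb+BMP2, and 4 higher and 10 lower with TNFa+TGFb+BMP2. In colonoids 49 were lower with TGFb+BMP and 50 with TGFb+BMP+TNF. None was called for TNF in either system. The shares of all genes at that FDR are not given here, so these counts stand only as the authors' calls for the same genes.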

How the data were processed

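RNA-seq of 30 mouse libraries was analysed from 7 tables, each holding 6 libraries of 1 comparison. The authors deposited per-library CPM values (a signal: counts over the effective library size, scaled within each table), with log2 fold changes, p-values and FDR values per gene in the same deposited tables. Per the submitters' processing notes, edgeR 3.4.2, HTSeq 0.5.4p5, TopHat2 2.1.0, bcl2fastq 2.16, SAMtools 1.3.1 and CASAVA were used with build mm10; no source used here gives the strand setting of the counting, so overlapping antisense genes cannot be told apart. The deposited CPM steps gave whole reads for 100% of values in all 42 library columns (tolerance 0.05 reads).

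The main test was limma 3.58.1 (R 4.3.3, trended empirical Bayes, two-sided) on log2(CPM + 1) for genes with a mean of at least 1 CPM, with Benjamini-Hochberg adjustment over all genes of a table and a threshold of 0.05; changes are on that scale, which understates those of low genes. Interactions, the comparison of systems and the line contrasts used recovered reads with TMM scaling over joined tables. Values in the text are CPM of the table of the comparison named, so 1 library can differ slightly between comparisons. Alternatives were edgeR 4.0.16 on the recovered reads, pseudocount 0.5, no filter, total listed reads as scaling, the replicate block and leaving out each library. The tests were checked on simulated counts with little spread and no line or replicate effects. That check cannot show how limma and edgeR perform under the spread between colonoid lines. Figures and summaries used Python 3.11.15, numpy 2.4.6, pandas 2.3.3 and matplotlib 3.10.9.

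The members and the other gene lists were chosen with earlier results of these data known. Values in each library are given for 12 anchor genes and up to 6 genes of each direction with the largest change among those past the threshold without overlap, with exceptions where a value was singled out after it was seen. Same-numbered colonoid libraries share a line, per the labels. Same-numbered colonocyte libraries deviated together for TNFa (correlations 0.270 to 0.522). For TNFa+TGFb+BMP2 the same-number correlations were 0.163 to 0.411, and a pair with different numbers (2 and 1) reached 0.217. The numbers therefore pair those libraries only in part.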

Additional observations from a re-analysis of the deposited data

Results flagged for a closer look

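The effect of TGFB1 with BMP2 differed between colonoids and colonocytes for 50 of the 50 genes in a limma test of the difference itself. Of all genes, 29.2% were called in that direction. The edgeR test called fewer of the 50, and neither Mki67 nor Ccnb1 was among them. The log2 change in colonoids minus that in colonocytes was -3.43 for Mcm5, -0.40 for Pcna, -2.58 for E2f1, -3.22 for Mki67 and -3.23 for Ccnb1. A limma test of the colonoid lines, added after the values were seen, called 25.7% of all genes with a more positive effect in L46. In that test the effect in L46 minus the mean effect in L42 and L43 was past the threshold for 50 of the 50 genes. It was 2.51 for Mcm5, 0.34 for Pcna, 2.23 for E2f1, 3.19 for Mki67 and 3.04 for Ccnb1. Groups of 3 are too small for a test of single outlying samples.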

How the results depend on the processing

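Counts of the 50 genes past the threshold kept within 1.5 times of those reported under pseudocount 0.5 and with no filter on low values in every comparison. Shares of all genes are not given beside the counts of this section. The counts show how calls for the 50 genes moved, and not whether other genes moved less. With total listed reads as scaling the counts were 21 for TGFb+BMP2 and 25 for TNFa+TGFb+BMP2 in colonocytes and 7 for L46 against L43. With the replicate block they were 3 for TNFa, 14 for TGFb+BMP2 and 24 for TNFa+TGFb+BMP2 in colonocytes, and edgeR with that block gave 3, 13 and 24; with the block the epithelium count was 14. Replicate numbers deviated together too weakly to pair the epithelium (lowest correlation -0.006) or the TGFb+BMP2 colonocytes (0.048), so those block values show only shared numbers; in the colonoids the block is the line, with which limma called 50, 50 and 0 genes for TGFb+BMP, TGFb+BMP+TNF and TNF, and edgeR the same. The edgeR test gave 27 for TGFb+BMP and 25 for TGFb+BMP+TNF in colonoids and 28 for the difference between systems, all without the block; the cause was not tested. For the colonoid interaction, the replicate block with line by TGFb+BMP terms, added after seeing the data, gave 1. Leaving out 1 library at a time gave 3 to 24 in the epithelium, 0 to 1, 5 to 11 and 7 to 16 in colonocytes for TNFa, TGFb+BMP2 and TNFa+TGFb+BMP2, 27 to 50 and 23 to 50 in colonoids for TGFb+BMP and TGFb+BMP+TNF, and 42 to 50 between systems. It gave 0 to 42 for L46 against L42, 0 to 44 for L46 against L43, 1 to 21 for L46 without TGFb+BMP, 48 to 50 with it and 48 to 50 for the difference of effects. It gave 0 throughout for TNF in colonoids, both interactions and L43 against L42. With L42 and L43 alone, an alternative chosen after seeing the data, all 50 genes stayed lower in both TGFb+BMP comparisons of the colonoids. Of 1066 alternative values of single named genes 909 stayed on their side of the threshold, 157 lost it and none changed direction. Most of these genes were picked for being past the threshold in these same data, so the counts are no independent check. Where the groups of a comparison did not overlap, leaving out 1 library could not turn the direction. The smallest chi-square per gene between replicates of a group was 4.28, above what counting alone gives.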
